A study of Homo sapiens with 12 samples.

Results

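The genes described here encode the metzincin proteases of the MMP, ADAM and ADAMTS families and their TIMP inhibitors. They were taken by symbol from the platform annotation, which gave 63 of 18132 genes: 22 MMP, 19 ADAM, 18 ADAMTS and 4 TIMP genes. Each gene was followed through the brightest of its probe sets that name a single gene. The 63 genes have 159 such probe sets, with 43 genes represented more than once and 20 by 1 probe set.

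Expression was measured on 12 Affymetrix PrimeView arrays of total RNA from OCM1 and MUM2B, which the labels call human uveal melanoma lines, at 3 arrays a group. The groups were OCM1 cells overexpressing the lncRNA CANT1, wild type OCM1 cells, MUM2B cells overexpressing CANT1 and wild type MUM2B cells. For replicate 1 the labels describe CANT1 cells selected with puromycin, and for replicates 2 and 3 cells grown in DMEM with 10% FBS. The labels name wild type cells as the controls and describe no empty vector or selected control, so CANT1 cannot be told apart from vector and selection. They do not say whether replicates were separate cultures or how many clones a line holds, so every p-value measures only the spread between these arrays, which may be technical.

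Matrix metalloproteinases (MMPs) cut collagens and other matrix proteins, most as secreted enzymes and some, the membrane types, at the cell surface. ADAMs are membrane proteins, many of which release the outer parts of other membrane proteins, and some of which have lost the catalytic site. ADAMTS enzymes are secreted proteases that cut proteoglycans, procollagens or other specific substrates. TIMPs are secreted inhibitors of these enzymes. In melanoma they have been studied mainly for matrix turnover, invasion and vessel growth.

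Levels are given as log2 of the scaled signal plus 32, so a signal of 0 has the level 5, and differences understate the change of dim genes. A fold is a ratio of such signals plus 32. No detection calls were used, and a signal of 100 on a few arrays of any group was taken as the lower limit for testing. Differences were tested with limma, with Benjamini-Hochberg adjustment over all genes tested, and a gene passed at an adjusted p under 0.05. Tests used either replicates 2 and 3 (8 arrays, 12382 genes) or all 12 arrays with a term for the labelled set (12727 genes). Replicate 1 alone has 1 array a group and was not tested. Values after ± are standard errors.

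The wild type OCM1 array of replicate 1 stood apart. Its mean correlation with the other OCM1 arrays was 0.824, where the means of the 11 remaining arrays within their lines were 0.935 to 0.977. Its summed signal over the 8 measured melanocyte markers was 14299.8, while the remaining OCM1 arrays reached 76430.1 to 84223.3. Results that rest on it are given with and without it. MUM2B arrays summed to 549.6 to 741.9 over the same markers, and SOX10, MLANA, TYRP1, S100B and EDNRB were below a signal of 100 on every MUM2B array. In OCM1 the endothelial cadherin CDH5 had signals of 46.8 to 87.6, against 2393.8 to 4651.1 in MUM2B, and the keratin KRT8 had 46.2 to 119.3, against 2940.8 to 7958.4 in MUM2B. EPCAM, CDH1 and TEK, which mark epithelial and endothelial cells too, were below 100 on all 12 arrays. The 3′ minus 5′ difference of the ACTB control probe sets was larger on the replicate 1 arrays, at 2.14 to 2.49, than on the others, at 0.472 to 0.909. Replicates 2 and 3 of a group correlated at r = 0.994 to 0.996. The CASC15 locus, from which the CANT1 RNA is transcribed, has a probe set with signals of 12.9 to 18, which need not lie in that transcript and so checks nothing. In RNA from whole cultures, fewer cells of a type and less RNA per cell cannot be told apart.

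Of the 63 genes, 20 reached a signal of 100 on all 12 arrays, 18 on some and 25 on none. Of the 22 MMP genes, 12 were below it throughout. These included the interstitial collagenase MMP1 (levels 5.67 to 5.96), the stromelysin MMP3 (5.56 to 5.65), the matrilysin MMP7 (5.81 to 5.95) and the gelatinase MMP9 (5.94 to 6.59). Of the ADAM genes, 7 of 19 were below it on every array, among them ADAM2, ADAM18, ADAM20, ADAM21, ADAM29 and ADAM30, known mostly from testis and sperm. Of the ADAMTS genes 5 of 18 and of the TIMP genes 1 of 4, TIMP4 (6.26 to 7.01), were below it throughout. The genes at 100 on every array included the membrane-type MMP14, MMP15, MMP17 and MMP24, the sheddases ADAM10 and ADAM17, and TIMP1, TIMP2 and TIMP3. In both models 34 of the 63 genes were tested and the same 29 were not. The untested genes were the 25 above, ADAMTS16 at 100 on 2 arrays, and ADAMTS3, ADAMTS5 and ADAMTS19 at 100 on 1. ADAMTS3 and ADAMTS19 reached 100 only on the wild type OCM1 array of replicate 1, at levels of 8.04 and 7.74. The aggrecanase gene ADAMTS5 reached it only on the wild type MUM2B array of replicate 1, at 7.19.

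A run of 9 neighbouring MMP genes on chromosome 11 was dim in all cells but for 1 gene. MMP7, MMP20, MMP27, MMP10, MMP1, MMP3, MMP12 and MMP13 were below a signal of 100 on all 12 arrays. MMP8, which lies within the run and encodes the collagenase first found in neutrophils, reached 100 on 3 arrays, all of them OCM1.

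**Figure D1:**
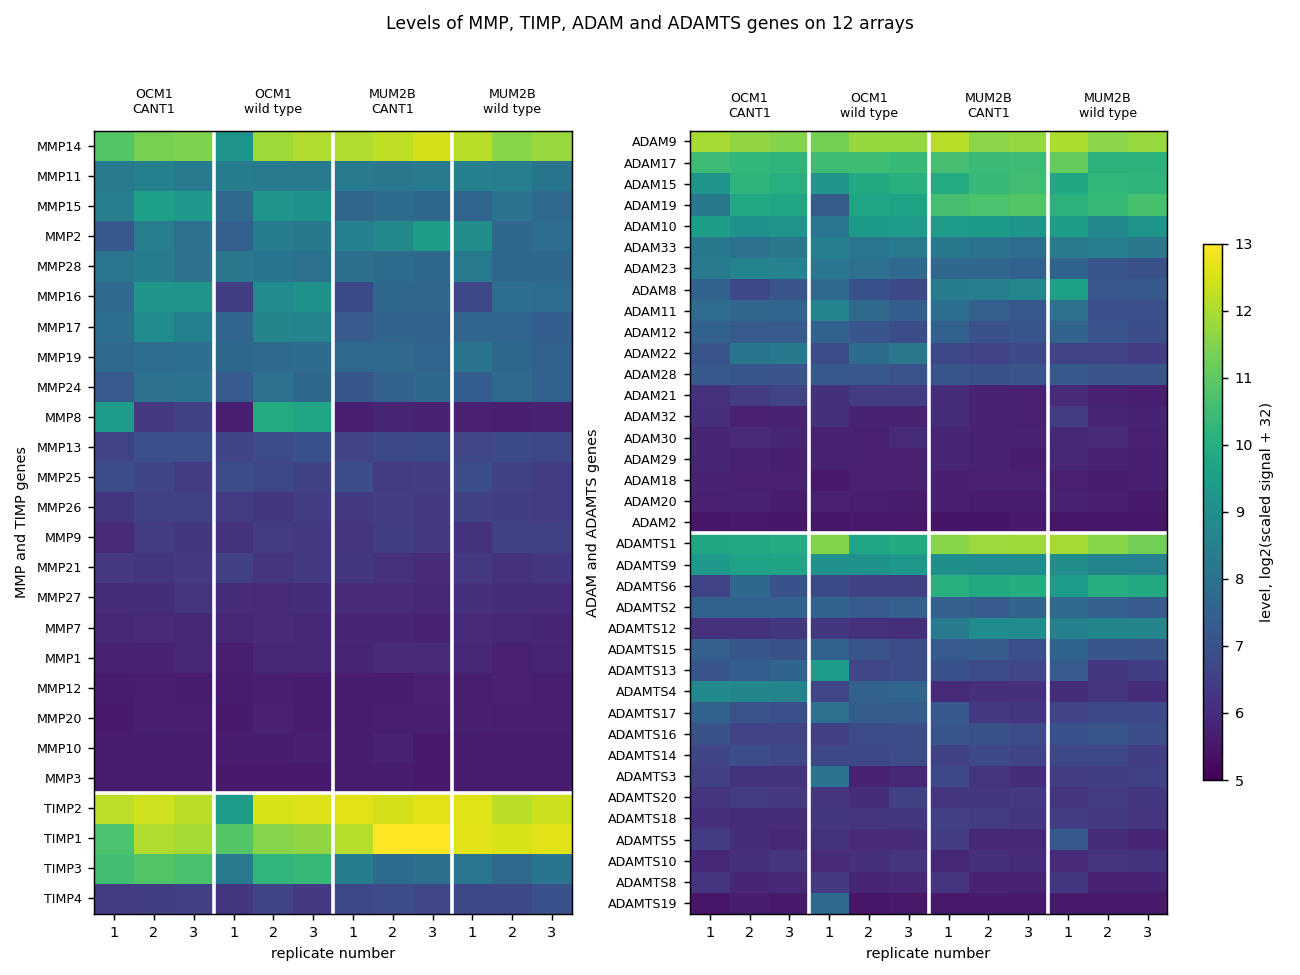
Levels of the 63 genes on 12 arrays, as log2 of the scaled signal plus 32 (colour), with MMP and TIMP genes on the left and ADAM and ADAMTS genes on the right. Columns are the replicates of the 4 groups; the dark rows are the 25 genes below a signal of 100 on every array and those just above it, and the wild type OCM1 column of replicate 1 departs from the other OCM1 columns for MMP14, TIMP2 and ADAMTS1.

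Upstream sequences are shown for MMP8, TIMP3, ADAMTS6 and ADAMTS12, which had the largest differences between the lines in each direction, for MMP14, which moved in opposite directions in CANT1 cells of the lines on replicates 2 and 3, and for TIMP1, which was called higher in CANT1 cells of both lines on those replicates. They are the 250 bases before the annotated start, read 5′ to 3′ in the direction of the gene, from RefSeq on GRCh38.p14, whose table holds 37 of the 63 genes. Capitals mark 4 short motifs searched on both strands: the AP-1 motif TGANTCA, the GC box GGGCGG, the TATA box TATAAA and the E-box CACGTG. A match is only a match of letters.
MMP8: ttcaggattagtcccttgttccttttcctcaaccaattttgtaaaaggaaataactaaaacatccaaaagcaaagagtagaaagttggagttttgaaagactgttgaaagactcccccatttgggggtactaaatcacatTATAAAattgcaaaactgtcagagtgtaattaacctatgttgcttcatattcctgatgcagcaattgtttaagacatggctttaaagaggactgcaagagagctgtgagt
TIMP3: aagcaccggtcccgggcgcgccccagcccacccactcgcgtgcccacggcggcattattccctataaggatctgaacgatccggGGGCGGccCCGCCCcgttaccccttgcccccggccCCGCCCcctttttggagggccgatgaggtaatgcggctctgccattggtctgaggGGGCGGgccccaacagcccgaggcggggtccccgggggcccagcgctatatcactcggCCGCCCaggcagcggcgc
ADAMTS6: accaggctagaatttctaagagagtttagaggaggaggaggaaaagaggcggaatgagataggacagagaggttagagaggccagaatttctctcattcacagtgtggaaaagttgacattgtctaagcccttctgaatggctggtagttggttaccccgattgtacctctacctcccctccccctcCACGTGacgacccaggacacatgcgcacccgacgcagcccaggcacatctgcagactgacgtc
ADAMTS12: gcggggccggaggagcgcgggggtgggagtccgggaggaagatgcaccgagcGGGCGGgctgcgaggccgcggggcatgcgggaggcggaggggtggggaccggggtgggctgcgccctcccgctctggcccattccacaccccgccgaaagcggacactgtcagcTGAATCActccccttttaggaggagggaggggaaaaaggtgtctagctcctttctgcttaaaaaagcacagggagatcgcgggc
MMP14: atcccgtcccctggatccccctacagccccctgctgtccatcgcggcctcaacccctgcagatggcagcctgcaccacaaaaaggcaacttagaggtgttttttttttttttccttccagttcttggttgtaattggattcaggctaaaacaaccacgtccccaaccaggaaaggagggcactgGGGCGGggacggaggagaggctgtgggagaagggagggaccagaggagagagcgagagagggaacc
TIMP1: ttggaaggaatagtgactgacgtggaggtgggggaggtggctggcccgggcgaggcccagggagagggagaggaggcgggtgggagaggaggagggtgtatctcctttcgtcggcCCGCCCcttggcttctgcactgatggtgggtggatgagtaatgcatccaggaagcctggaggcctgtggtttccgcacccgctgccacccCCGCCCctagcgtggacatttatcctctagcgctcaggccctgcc
The MMP8 sequence (chr11:102724955-102725204, minus strand) has a GC content of 36.4% and holds TATAAA at −110 from the start, which 10.7% of all 35116 promoters in the table hold. The TIMP3 sequence (chr22:32801455-32801704, plus strand) is 72.4% G and C and holds 5 GC boxes, and 42.6% of all promoters hold at least 1. The ADAMTS12 sequence (chr5:33891991-33892240, minus strand) holds an AP-1 motif at −84, which 6.57% of all promoters hold, and a GC box at −198. The ADAMTS6 sequence (chr5:65481921-65482170, minus strand) holds an E-box at −63, found in 6.34% of all promoters. MMP14 (chr14:22836335-22836584, plus strand) has 1 GC box at −66 and TIMP1 (chrX:47582186-47582435, plus strand) has 2. Among the 38 promoters listed for the family, 24 held a GC box, 7 a TATA box, 5 an E-box and 4 an AP-1 motif.

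Some membrane-type MMPs, ADAMTS enzymes and TIMPs differed between the lines, as did most genes tested. In wild type cells of replicates 2 and 3, OCM1 had more MMP8, TIMP3, MMP15, MMP16, MMP17, ADAMTS4 and the catalytically inactive ADAM22 and ADAM23. MUM2B had more ADAMTS6, ADAMTS12, ADAMTS1, TIMP1 and ADAM19. Of the 34 tested genes, 16 were higher and 5 lower in OCM1, which is 61.8%, and limma called 64.1% of all genes in this comparison (34.9% higher and 29.2% lower). The share of the family lay near that of all genes. The median difference of the 34 genes was 0.27 and that of all genes tested 0.066. Of the 21 calls, 15 were made in every alternative that tested the gene. On replicates 2 and 3, MMP8, ADAMTS4, ADAMTS12, ADAMTS13, ADAMTS17 and ADAM22 reached a signal of 100 only in the line where they were higher. They entered this test through that line alone. ADAMTS13 reached it only in OCM1 CANT1 cells, so every wild type array compared here was below it. The melanocyte markers, CDH5, KRT8 and the fibroblast gene LUM moved with the lines. LUM had signals of 1226.6 to 1442.8 on 5 OCM1 arrays and 62.5 on the wild type one of replicate 1, against 22.5 to 37.5 in MUM2B. Other markers, such as VWF (151.8 to 210.6 in OCM1, 112.5 to 227.3 in MUM2B), overlapped between the lines. The part of the markers in these differences was not tested.

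Among the MMPs, 6 of 10 tested genes were higher in OCM1 and none was lower (60%, where 64.1% of all genes passed, 34.9% higher and 29.2% lower). MMP8 had levels of 9.93 and 9.74 in wild type OCM1 cells of replicates 2 and 3, against 5.69 and 5.78 in wild type MUM2B cells, and the difference was 4.10 ± 0.11 (limma adjusted p = 5.32e-11). The MUM2B signals of MMP8 were below 100 on all 6 arrays, so the difference rests on the offset of 32 and is no measure of the fold. On replicate 1 wild type OCM1 had 5.70 and wild type MUM2B 5.73, and the difference was −0.026. With all 12 arrays MMP8 did not pass, at 2.73 ± 1.09 (adjusted p = 0.0854), and it passed at 4.42 (adjusted p = 0.000383) without the wild type OCM1 array of replicate 1. Its 3 other probe sets gave 2.42 to 3.71 on replicates 2 and 3.

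Of the 5 tested membrane-type MMPs, 4 were higher in OCM1 and none was lower (80%, where 64.1% of all genes passed, 34.9% higher and 29.2% lower). MMP15, a transmembrane type, had 7.72, 9.18 and 9.12 in wild type OCM1 cells, against 7.61, 8.03 and 7.72 in wild type MUM2B cells, in replicate order. The difference was 1.27 ± 0.12 on replicates 2 and 3 (limma adjusted p = 2.48e-06), and the second, dimmer probe set gave 0.52. MMP16, another transmembrane type, had 6.47, 8.89 and 9.11 in wild type OCM1 cells, against 6.75, 7.91 and 7.87 in wild type MUM2B cells, a difference of 1.11 ± 0.099 on replicates 2 and 3. The other MMP16 probe sets gave 0.43 to 0.87. Both lines had lower MMP16 on replicate 1 than on replicates 2 and 3. MMP17, which is held by a lipid anchor, had 7.59, 8.65 and 8.57 in wild type OCM1 cells, against 7.60, 7.62 and 7.40 in wild type MUM2B cells, and differed by 1.10 ± 0.14. For all 3 genes the groups did not overlap on replicates 2 and 3, and on replicate 1 the lines were within 0.27 of each other.

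MMP14, the membrane-type enzyme that activates the gelatinase MMP2, differed between the wild type lines in opposite directions in the 2 labelled sets. It had 9.13, 11.86 and 12.04 in OCM1 and 12.15, 11.56 and 11.75 in MUM2B, and the difference was −3.02 on replicate 1 and 0.30 ± 0.12 on replicates 2 and 3 (limma adjusted p = 0.0412). That call was lost in 7 of 15 alternatives, among them leaving out wild type MUM2B replicate 2 (adjusted p = 0.234), wild type OCM1 replicate 3 (0.239) or OCM1 CANT1 replicate 2 or 3 (0.0518 each). MMP28, known as epilysin, differed by 0.39 ± 0.12 (adjusted p = 0.0164). Its call was lost without wild type MUM2B replicate 2 (adjusted p = 0.0615) or 3 (0.0503) or without wild type OCM1 replicate 2 (0.0860). MMP2 at 0.48 ± 0.20, MMP24 at 0.24 ± 0.13, MMP19 at 0.20 ± 0.10 and the stromelysin MMP11 at 0.035 ± 0.12 did not pass.

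**Figure D2:**
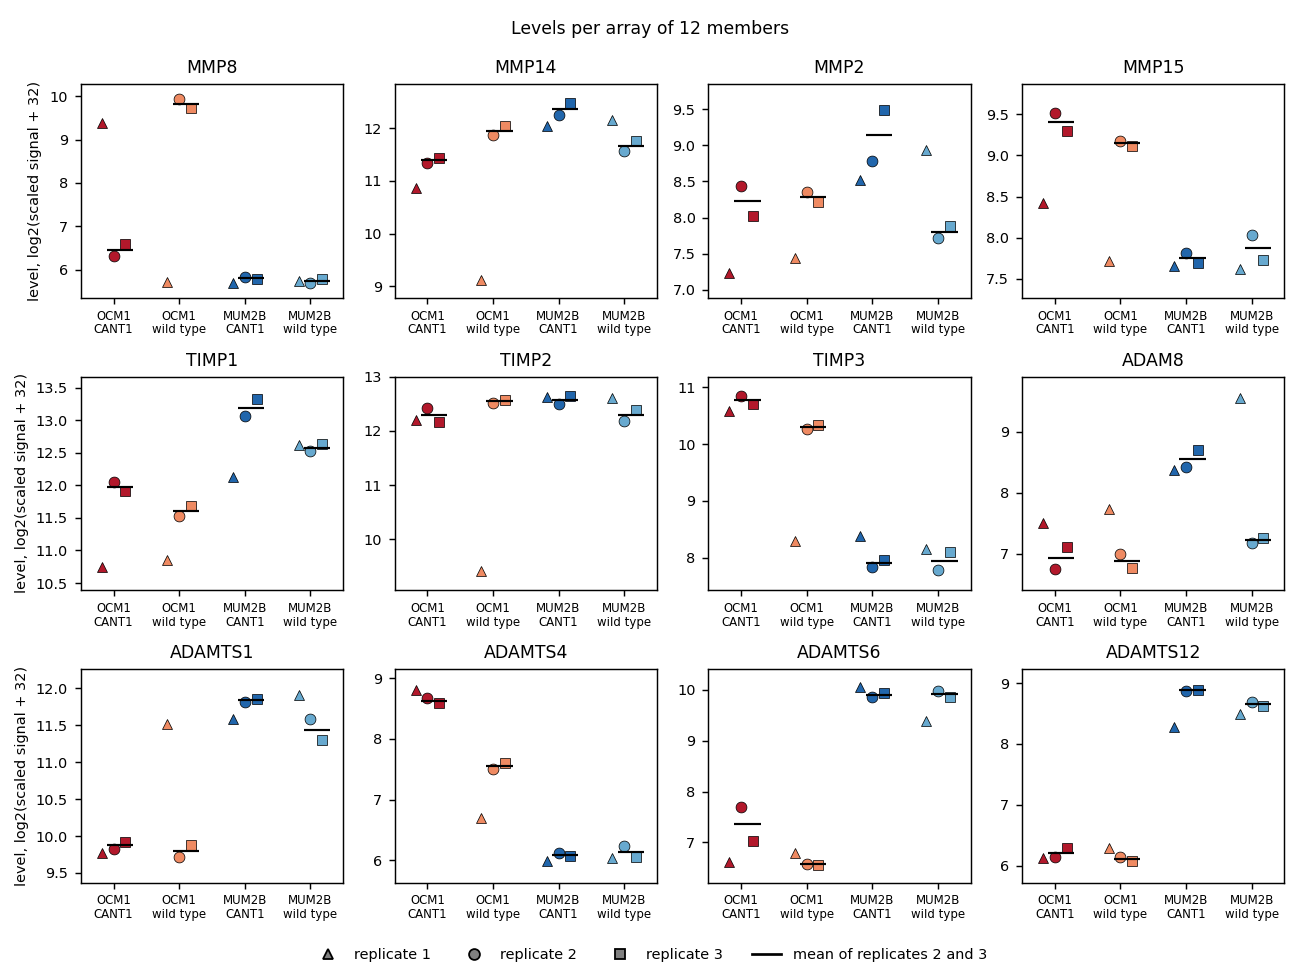
Levels of 12 genes on each array, as log2 of the scaled signal plus 32, by group, with replicate 1 as triangles, replicate 2 as circles, replicate 3 as squares and lines at the mean of replicates 2 and 3. MMP8 is high in 2 wild type OCM1 arrays and in the OCM1 CANT1 array of replicate 1, and ADAMTS6 and ADAMTS12 separate the lines on every array. The vertical scales differ between panels.

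The TIMPs showed opposite line differences. TIMP3, which binds to the matrix and also inhibits ADAM17 and aggrecan-cutting ADAMTS enzymes, had 8.29, 10.27 and 10.34 in wild type OCM1 cells, against 8.15, 7.78 and 8.09 in wild type MUM2B cells. The difference on replicates 2 and 3 was 2.37 ± 0.12 (5.18-fold, limma adjusted p = 8.19e-09), and on replicate 1 it was 0.14. Its 3 probe sets gave 2.22 to 2.98. The difference was 1.63 ± 0.44 with all 12 arrays (adjusted p = 0.0183) and 2.36 (adjusted p = 4.72e-06) without the wild type OCM1 array of replicate 1. That 12-array call was lost without wild type MUM2B replicate 2 (0.0706) or 3 (0.0596) or wild type OCM1 replicate 2 (0.0721) or 3 (0.0738). In CANT1 cells TIMP3 was at 10.59, 10.84 and 10.71 in OCM1, against 8.39, 7.83 and 7.96 in MUM2B, so the lines did not overlap on any replicate.

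TIMP1 ran the other way. It had 10.86, 11.53 and 11.69 in wild type OCM1 cells, against 12.63, 12.53 and 12.63 in wild type MUM2B cells, and was lower in OCM1 on all 3 replicates. The difference was −0.97 ± 0.11 on replicates 2 and 3 (limma adjusted p = 1.47e-05) and −1.24 ± 0.24 with all 12 arrays (adjusted p = 0.00367), and it passed in every alternative of both. TIMP2, which takes part in the activation of MMP2 by MMP14, had 9.41, 12.52 and 12.57 in wild type OCM1 cells and 12.61, 12.17 and 12.39 in wild type MUM2B cells. Its difference of 0.26 ± 0.12 on replicates 2 and 3 did not pass, and its second probe set gave 1.39, so the 2 probe sets of TIMP2 disagree.

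Among the ADAMTS genes 7 of 9 tested passed, 4 higher and 3 lower in OCM1 (77.8%, where 64.1% of all genes passed). ADAMTS6 had 6.79, 6.58 and 6.56 in wild type OCM1 cells, against 9.40, 9.98 and 9.87 in wild type MUM2B cells. The difference was −3.35 ± 0.17 on replicates 2 and 3 (limma adjusted p = 9.77e-09), −2.61 on replicate 1 and −3.10 ± 0.24 with 12 arrays (adjusted p = 1.15e-05). ADAMTS12 had 6.29, 6.15 and 6.08 in wild type OCM1 cells, against 8.50, 8.68 and 8.63 in wild type MUM2B cells, a difference of −2.55 ± 0.094 (adjusted p = 6.32e-10). These 2 genes separated the lines on all 12 arrays, also on the wild type OCM1 array of replicate 1. The second, dimmer probe set gave −0.64 for ADAMTS6 and −0.24 for ADAMTS12.

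ADAMTS1, a protease of aggrecan and versican, had 11.52, 9.72 and 9.88 in wild type OCM1 cells, against 11.91, 11.58 and 11.30 in wild type MUM2B cells. The difference was −1.64 ± 0.11 on replicates 2 and 3 (limma adjusted p = 1.43e-07), while the wild type OCM1 array of replicate 1 lay in the range of MUM2B. The 12-array difference of ADAMTS1 was −1.22 ± 0.35 (adjusted p = 0.0246), and −1.78 (adjusted p = 4.08e-05) without that array. The 12-array call was lost without any one of the wild type MUM2B arrays (0.0513, 0.0800 and 0.0572 for replicates 1 to 3) or without wild type OCM1 replicate 2 (0.0941) or 3 (0.0922). ADAMTS4, an aggrecanase, ran the other way, with 6.70, 7.51 and 7.61 in wild type OCM1 cells and 6.04, 6.24 and 6.05 in wild type MUM2B cells, a difference of 1.41 ± 0.10 (adjusted p = 1.77e-07). ADAMTS9, a versican protease, differed by 0.59 ± 0.096, ADAMTS17 by 0.61 ± 0.091 and ADAMTS13, the protease of von Willebrand factor, by 0.38 ± 0.11. For ADAMTS13 all wild type arrays of replicates 2 and 3 were below a signal of 100, and its second probe set gave 0.15. The ADAMTS13 call was lost without wild type MUM2B replicate 2 (adjusted p = 0.10) or wild type OCM1 replicate 3 (0.0822). The procollagen protease ADAMTS2 at −0.024 ± 0.11 and ADAMTS15 at −0.15 ± 0.13 did not pass.

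Of the 12 tested ADAM genes, 5 were higher and 1 lower in OCM1 (50%, where 64.1% of all genes passed). The inactive members ADAM22, ADAM23 and ADAM11, which are known as cell surface proteins of neurons, were higher in OCM1, by 1.45 ± 0.13, 0.80 ± 0.12 and 0.62 ± 0.13. ADAM22 had 6.87, 7.83 and 8.16 in wild type OCM1 cells, against 6.61, 6.64 and 6.44 in wild type MUM2B cells. Its other, dimmer probe sets gave −0.0026 to 0.98 on replicates 2 and 3. The sheddases ADAM10 and ADAM17 differed by 0.43 ± 0.13 (limma adjusted p = 0.0102) and 0.28 ± 0.094 (adjusted p = 0.0211). Both calls depended on single arrays, and that of ADAM17 was also lost with the deposited log2 values (adjusted p = 0.0533). ADAM10 was at 0.23 without wild type MUM2B replicate 2 (adjusted p = 0.122) and was lost without wild type OCM1 replicate 3 (0.0570), and ADAM17 was lost without wild type MUM2B replicate 2 (0.0875) or 3 (0.0549) or wild type OCM1 replicate 2 (0.138). ADAM19, the 1 gene lower in OCM1, differed by −0.83 ± 0.11, and its brightest probe set that does not end in _s_at gave −0.14 (adjusted p = 0.318). ADAM8 at −0.34 ± 0.14, ADAM9 at 0.061 ± 0.10, ADAM12 at 0.01 ± 0.10, ADAM15 at −0.27 ± 0.11, ADAM28 at 0.044 ± 0.095 and ADAM33 at −0.088 ± 0.11 did not pass.

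**Figure D3:**
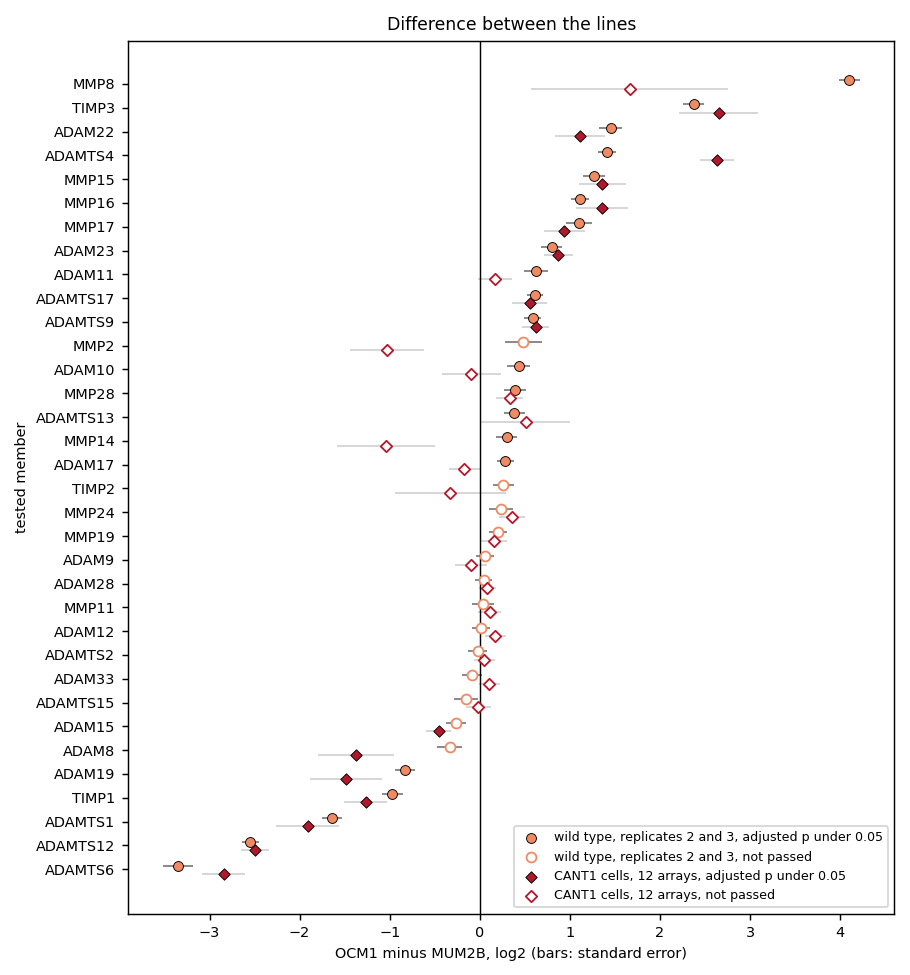
Differences of the 34 tested genes between the lines, OCM1 minus MUM2B on the log2 scale, with standard errors, in wild type cells of replicates 2 and 3 (circles) and in CANT1 cells with all 12 arrays in the fit (diamonds). Filled symbols passed at an adjusted p under 0.05. MMP8 and TIMP3 lie at the top and ADAMTS12 and ADAMTS6 at the bottom, and MMP14 and MMP2 lie on opposite sides of 0 in the 2 comparisons.

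On the replicate 1 arrays, which took no part in that test, 14 of the 21 genes had the same sign between the wild type lines (66.7%), as had 64.3% of all genes called. The 7 others were MMP8, MMP14, MMP16, MMP17, MMP28, ADAM10 and ADAM17. Between the CANT1 cells of replicate 1 it was 18 of 21 (85.7%, against 92% of all genes called), with ADAM11, ADAM17 and MMP14 on the other side. With all 12 arrays, 13 of 34 genes passed between the wild type lines, 8 higher and 5 lower in OCM1 (38.2%, against 33.1% of all genes, 19.2% higher and 13.9% lower). Without the wild type OCM1 array of replicate 1 it was 15 genes, against 43.8% of all genes. The count fell to 7 without wild type MUM2B replicate 2, to 6 without its replicate 3, to 7 without wild type OCM1 replicate 2 and to 8 without its replicate 3. ADAM23, ADAMTS4, ADAMTS6, ADAMTS12, ADAMTS17 and TIMP1 passed in every alternative that tested them.

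Between the CANT1 cells of the lines, 16 of 34 genes passed with all 12 arrays, 9 higher and 7 lower in OCM1 (47.1%, against 37.4% of all genes, 21.3% higher and 16.1% lower). Without the wild type OCM1 array of replicate 1 the count was 18, against 48.5% of all genes. TIMP3 differed by 2.65 ± 0.44 (limma adjusted p = 0.00125), ADAMTS4 by 2.63 ± 0.19 (adjusted p = 7.76e-06), MMP15 by 1.36 ± 0.26 and MMP16 by 1.36 ± 0.29. The MMP16 call was lost with no set term (adjusted p = 0.171). ADAM8, a protease first described on leukocytes, differed by −1.37 ± 0.42 (adjusted p = 0.0271), a call lost without OCM1 CANT1 replicate 1 (0.0884) or 2 (0.0801) or MUM2B CANT1 replicate 2 (0.0944) or 3 (0.108). ADAM15 differed by −0.46 ± 0.14 (adjusted p = 0.0262), a call lost without any one of the OCM1 CANT1 and MUM2B CANT1 arrays of replicates 1 and 3 (0.0730 to 0.104). With no set term the calls of ADAM8 (0.0847) and ADAM15 (0.344) were lost too. ADAM19 differed by −1.49 ± 0.40, a call lost without MUM2B CANT1 replicate 1 (0.0673) or OCM1 CANT1 replicate 1 (0.0611) and with no set term (0.0858). The probe set of ADAM19 that does not end in _s_at gave −0.29 (adjusted p = 0.132). ADAM22 differed by 1.11 ± 0.28, a call lost without MUM2B CANT1 replicate 2 (0.0529). ADAMTS17 at 0.55 ± 0.19 passed in 6 of 19 alternatives. The 10 calls for ADAM23, ADAMTS1, ADAMTS4, ADAMTS6, ADAMTS9, ADAMTS12, MMP15, MMP17, TIMP1 and TIMP3 were made in every alternative.

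Many genes that act beside these enzymes also differed between the lines. Of 46 listed activators, inhibitors, substrates and partners, 44 are on the array and 36 were tested. In wild type OCM1 of replicates 2 and 3, 14 were higher and 15 lower (80.6%, where 64.1% of all genes passed). The list was chosen with earlier results of these data known, so its share above that of all genes is no independent result. With 12 arrays 6 were higher and 8 lower (38.9%, where 33.1% of all genes passed). Without the wild type OCM1 array of replicate 1, 22 of the 36 passed, where 43.8% of all genes did. PLAU, the urokinase that forms plasmin, differed by −7.25 ± 0.12 (limma adjusted p = 2.52e-12) and its receptor PLAUR by −2.97 ± 0.11. The versican gene VCAN, a substrate of ADAMTS enzymes, was at −3.29 ± 0.12, TSPAN5, which carries ADAM10 to the surface, at −2.76 ± 0.095 and the growth factor gene HBEGF, shed by ADAMs, at −2.45 ± 0.12. Higher in OCM1 were the proprotein convertase PCSK6 (4.60 ± 0.15), the serine protease inhibitor SERPINE2 (3.76 ± 0.089), the integrin gene ITGB3 (3.43 ± 0.20), the protease trap A2M (3.16 ± 0.13), the plasminogen activator PLAT (2.15 ± 0.23) and TSPAN33 (1.96 ± 0.10). The calls of 3 of these genes were lost with all 12 arrays. PLAT was then at 0.83 ± 0.81 (adjusted p = 0.485), and at 1.21 (adjusted p = 0.331) without the wild type OCM1 array of replicate 1. VCAN was at −1.95 ± 0.91 (adjusted p = 0.135) and ITGB3 at 1.84 ± 0.77 (adjusted p = 0.1), and both passed without that array, at −3.52 and 3.01.

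In OCM1 cells of replicates 2 and 3, CANT1 cells had less MMP8 and MMP14 and more ADAMTS4, ADAMTS6, ADAMTS13, ADAM23 and TIMP3 than wild type cells. Of the 34 genes 7 rose and 3 fell (29.4%), and limma called 23.6% of all genes in this comparison (14.1% higher and 9.51% lower), so the share of the family lay close to the background. The median difference was 0.099 over the 34 genes and 0.039 over all genes tested. The calls for MMP8, ADAM23, ADAMTS4, ADAMTS6 and ADAMTS13 were made in every alternative that tested them, and the count was 6 without wild type OCM1 replicate 2 or 3.

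MMP8 had the largest change of the 34 genes in this comparison. On replicates 2 and 3 it reached a signal of 100 only in wild type OCM1 cells, so it was tested only through the group where it was high. Its levels were 6.32 and 6.59 in OCM1 CANT1 cells of replicates 2 and 3, against 9.93 and 9.74 in wild type OCM1 cells. It fell by 3.38 ± 0.11 on the log2 scale (limma adjusted p = 1.42e-08), and its 4 probe sets gave −3.38 to −2.30. On replicate 1 the order was turned, with 9.39 in OCM1 CANT1 cells and 5.70 in wild type cells, a difference of 3.69 between 2 single arrays, of which the wild type one is the array that stood apart. Its 4 probe sets all had that sign on replicate 1, at 0.65 to 3.69. MMP8 did not pass with all 12 arrays, at −1.03 ± 1.09 (adjusted p = 0.81), or at −2.72 (adjusted p = 0.0842) without that array.

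ADAMTS4 was higher in OCM1 CANT1 cells in both labelled sets. It had 8.81, 8.67 and 8.59 in OCM1 CANT1 cells, against 6.70, 7.51 and 7.61 in wild type OCM1 cells, and no wild type array reached the CANT1 arrays. The difference was 1.07 ± 0.10 on replicates 2 and 3 (limma adjusted p = 4.02e-05) and 2.11 on replicate 1. It was the only one of the 34 genes to pass with all 12 arrays, at 1.42 ± 0.19 (adjusted p = 0.0272), where 0.173% of all genes passed (0.141% higher and 0.0314% lower). Without the wild type OCM1 array of replicate 1 it was 1.13 (adjusted p = 0.0025, against 1.19% of all genes). The 12-array call was lost without any single array of replicates 2 and 3 (adjusted p = 0.0615 to 0.177). Both of its probe sets end in _x_at, a kind that can bind related transcripts, and the dimmer one, below a signal of 100, gave 0.11 on replicates 2 and 3.

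ADAMTS6 had 6.62, 7.70 and 7.03 in OCM1 CANT1 cells, against 6.79, 6.58 and 6.56 in wild type OCM1 cells. It rose by 0.79 ± 0.17 on replicates 2 and 3 (limma adjusted p = 0.0066), by 0.46 without OCM1 CANT1 replicate 2, and stayed below every MUM2B array. ADAMTS13 rose by 0.72 ± 0.11 (adjusted p = 0.00118), with 7.11, 7.39 and 7.59 in OCM1 CANT1 cells and 9.39, 6.70 and 6.83 in wild type OCM1 cells. The high wild type value is again the array of replicate 1, where the difference was −2.29. On replicates 2 and 3 ADAMTS13 reached a signal of 100 only in OCM1 CANT1 cells, so it was tested only through the group where it was high. Its second, dimmer probe set gave −0.039 on these replicates, so it did not show the rise. No alternative used that probe set. ADAMTS9 rose by 0.47 ± 0.096 (adjusted p = 0.0051), a call lost without wild type replicate 2 (0.0505), and was higher by 0.26 on replicate 1. ADAMTS17 fell by 0.35 ± 0.091 (adjusted p = 0.0181), a call lost without wild type replicate 2 (0.0705) or 3 (0.0873) or CANT1 replicate 3 (0.118), and differed by −0.52 on replicate 1.

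ADAM23 rose by 0.69 ± 0.12 in OCM1 (limma adjusted p = 0.00162), with 8.34, 8.57 and 8.54 in CANT1 cells and 8.13, 8.0 and 7.73 in wild type cells. All 3 CANT1 arrays lay above all 3 wild type arrays. MMP14 fell by 0.56 ± 0.12 (adjusted p = 0.00538), with 10.86, 11.35 and 11.44 in CANT1 cells and 9.13, 11.86 and 12.04 in wild type cells. Its 4 probe sets gave −0.66 to −0.50, the call was lost without wild type replicate 3 (adjusted p = 0.0538), and on replicate 1 the difference was 1.73. TIMP3 rose by 0.47 ± 0.12 (adjusted p = 0.0149), with 10.59, 10.84 and 10.71 in CANT1 cells and 8.29, 10.27 and 10.34 in wild type cells, and TIMP1 by 0.37 ± 0.11 (adjusted p = 0.0363). The TIMP3 call was lost without wild type replicate 2 (0.0869) or 3 (0.0545) or CANT1 replicate 2 (0.114), and the TIMP1 call without any one of the 4 OCM1 arrays of replicates 2 and 3 (0.0570 to 0.217). With the deposited log2 values the calls of TIMP3 (adjusted p = 0.0581) and TIMP1 (0.0961) were lost too. Of the 10 genes called in OCM1, 5 had the same sign on replicate 1, as had 39% of all genes called.

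In MUM2B cells of replicates 2 and 3, CANT1 cells had more ADAM8, MMP2, MMP14 and TIMP1 than wild type cells. Of the 34 genes 8 rose and 1 fell (26.5%), and limma called 24.8% of all genes (14.4% higher and 10.5% lower). The median difference was 0.095 over the 34 genes and 0.005 over all genes tested. The 4 genes named passed in all 15 alternatives. The count was 5 without MUM2B CANT1 replicate 2 or 3.

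MMP2, the gelatinase of basement membrane collagen, had 8.52, 8.78 and 9.49 in MUM2B CANT1 cells, against 8.94, 7.71 and 7.89 in wild type MUM2B cells. The difference was 1.34 ± 0.20 on replicates 2 and 3 (2.53-fold, limma adjusted p = 0.00139). Its brightest probe set not ending in _s_at gave 0.69, and the 4 probe sets ranged from 0.41 to 1.34. On replicate 1 the difference was −0.42, where the wild type array was higher than those of replicates 2 and 3. MMP14 had 12.05, 12.25 and 12.48 in MUM2B CANT1 cells, against 12.15, 11.56 and 11.75 in wild type MUM2B cells. It rose by 0.71 ± 0.12 on replicates 2 and 3 (adjusted p = 0.00196), with 0.64 to 0.76 over its 4 probe sets, and differed by −0.10 on replicate 1.

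TIMP1 had 12.12, 13.06 and 13.32 in MUM2B CANT1 cells, against 12.63, 12.53 and 12.63 in wild type MUM2B cells. It rose by 0.61 ± 0.11 on replicates 2 and 3 (limma adjusted p = 0.00386) and differed by −0.50 on replicate 1, and its dimmest probe set gave −0.22 on replicates 2 and 3. ADAM8 had 8.37, 8.42 and 8.70 in MUM2B CANT1 cells, against 9.56, 7.18 and 7.25 in wild type MUM2B cells. It rose by 1.34 ± 0.14 on replicates 2 and 3 (2.54-fold, adjusted p = 0.000294), and was at −1.18 on replicate 1. Its 4 probe sets gave 0.41 to 1.34. For MMP2, MMP14, TIMP1 and ADAM8 the 2 sets thus had opposite signs, with the wild type array of replicate 1 above its CANT1 array.

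Smaller changes in MUM2B were those of ADAM23 (0.50 ± 0.12, limma adjusted p = 0.00985), ADAMTS1 (0.40 ± 0.11), ADAMTS13 (0.39 ± 0.11), ADAMTS9 (0.29 ± 0.096) and ADAMTS17 (−0.44 ± 0.091). Each was lost when single arrays were left out. ADAMTS9 was also lost with quantile normalization (adjusted p = 0.0811), with the deposited log2 values (0.0659) and with an intensity trend in limma (0.0516). ADAMTS13 and ADAMTS17 were below a signal of 100 on every MUM2B array of replicates 2 and 3 and entered the test through OCM1. The second probe set of ADAMTS13 gave −0.091 in MUM2B on these replicates. ADAM23 was lost without wild type replicate 3 (adjusted p = 0.0627) or CANT1 replicate 2 (0.0508), and ADAMTS17 without CANT1 replicate 3 (0.0549). ADAMTS1 was at 0.25 without wild type replicate 3 (0.177) and was lost without CANT1 replicate 2 (0.0597) or 3 (0.133). ADAMTS13 was lost without wild type replicate 2 (0.222) or CANT1 replicate 2 (0.112) or 3 (0.0830), and ADAMTS9 without any one of the 4 MUM2B arrays or of the 2 OCM1 CANT1 arrays (0.0640 to 0.161).

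Replicate 1 did not repeat the MUM2B changes. Of the 9 genes called, 2 had the same sign there, ADAM23 (0.12) and ADAMTS9 (0.0042), and among all genes called in MUM2B 12.7% had the same sign. With all 12 arrays limma called 0 of 34 genes in MUM2B, and 0 of all 12727 genes, of which 219 had an unadjusted p under 0.05. The 12-array values were 0.75 ± 0.41 for MMP2, 0.50 ± 0.42 for ADAM8, 0.44 ± 0.54 for MMP14 and 0.24 ± 0.24 for TIMP1. Labelled set, growth label and the control signals for ACTB moved together, so their parts in the difference between the sets cannot be told apart.

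**Figure D4:**
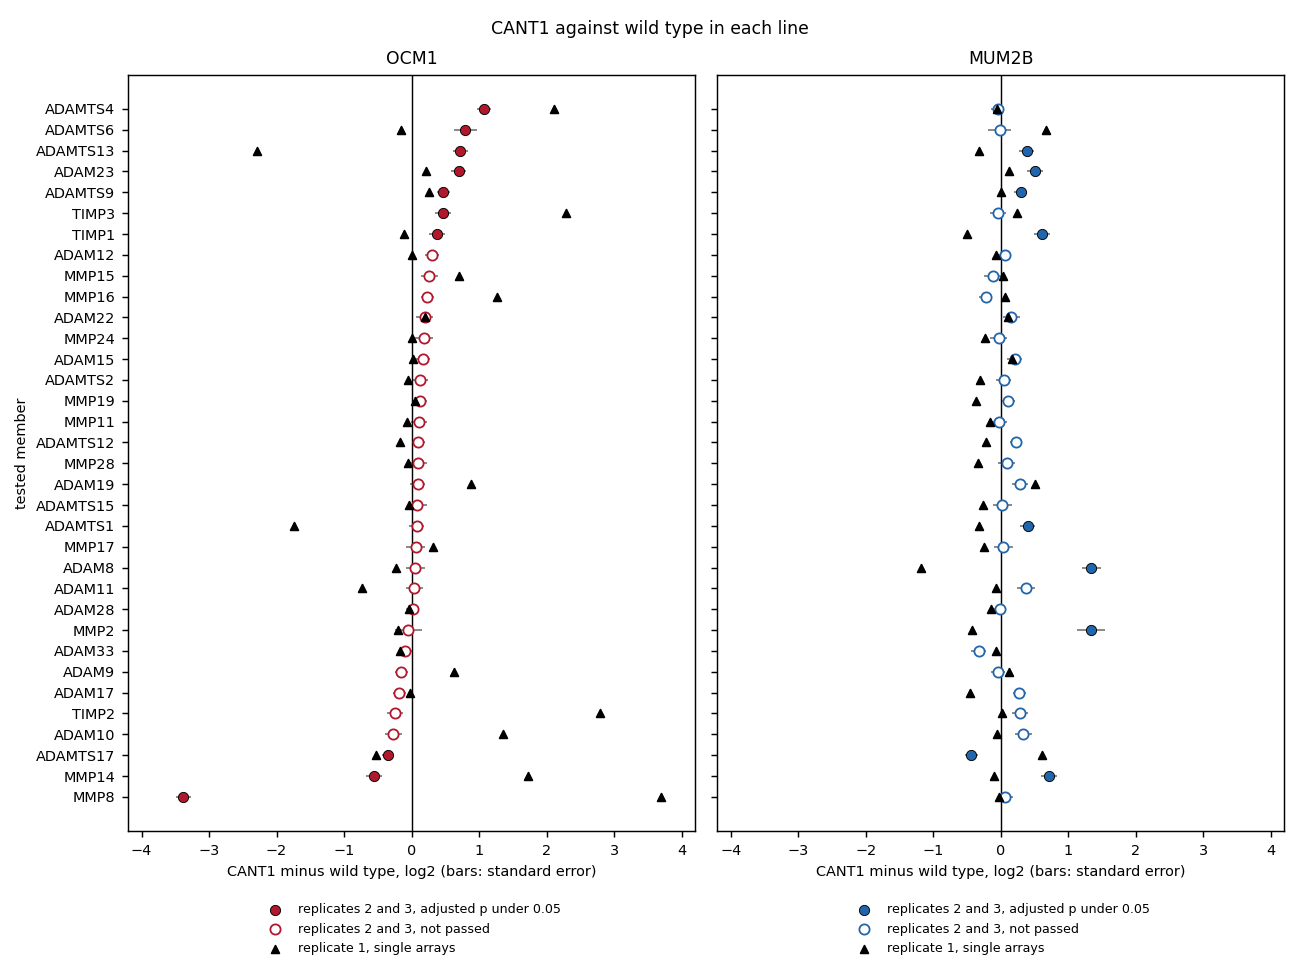
CANT1 minus wild type on the log2 scale for the 34 tested genes in OCM1 (left) and MUM2B (right), as the estimate on replicates 2 and 3 with its standard error (circles, filled at an adjusted p under 0.05) and the difference of the single arrays of replicate 1 (triangles, with no error). MMP8 is at −3.38 and 3.69 in OCM1 and MMP14 is at −0.56 in OCM1 and 0.71 in MUM2B on replicates 2 and 3. The triangles often lie on the other side of 0 from the filled circles.

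Over the 2 lines on replicates 2 and 3, 5 genes passed in the same direction. ADAM23, ADAMTS9, ADAMTS13 and TIMP1 rose and ADAMTS17 fell in both. In MUM2B, ADAMTS13 and ADAMTS17 were below a signal of 100 on every array of replicates 2 and 3. Their calls in that line rest on dim values. Of all genes, 5.06% passed in the same direction in both lines, against 14.7% of the 34, a difference that was not tested. None of the 5 genes kept its call in every alternative in both lines. On replicate 1 ADAM23 and ADAMTS9 had the same sign in both lines and ADAMTS17 in OCM1 only. TIMP1 (−0.50 in MUM2B, −0.12 in OCM1) and ADAMTS13 (−0.32 and −2.29) had the opposite sign in both. MMP14 passed in opposite directions (2.47% of all genes did). In MUM2B but not OCM1 3 genes passed, and in OCM1 but not MUM2B 4 genes did, where 17.3% and 16.1% of all genes did. The test of the difference between the 2 effects, OCM1 minus MUM2B, passed for 10 of 34 genes, 3 higher and 7 lower, where 22.2% of all genes passed (11.6% higher and 10.6% lower). MMP8 differed by −3.45 ± 0.16 (limma adjusted p = 5.93e-07), MMP2 by −1.39 ± 0.28 (adjusted p = 0.00639), ADAM8 by −1.29 ± 0.20 (adjusted p = 0.00165), MMP14 by −1.27 ± 0.16 (adjusted p = 0.000567) and ADAMTS4 by 1.12 ± 0.14 (adjusted p = 0.000511), and these 5 passed in every alternative. For MMP2 the difference was −0.89 with the probe set that does not end in _s_at.

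The other 5 were weaker. TIMP2 was lost with quantile normalization (limma adjusted p = 0.0647) and with no filter (0.0516). MMP16 was lost with the deposited log2 values (0.0589) and ADAMTS6 with no filter (0.0517). CANT1 minus wild type was −0.28 for ADAM10 and −0.18 for ADAM17 in OCM1, and 0.33 and 0.28 in MUM2B. None of these 4 values passed alone, and the effects differed by −0.61 ± 0.18 and −0.46 ± 0.13. TIMP2 differed by −0.54 ± 0.17, MMP16 by 0.46 ± 0.14 and ADAMTS6 by 0.81 ± 0.24, and the last was 0.47 without OCM1 CANT1 replicate 2. Each of these 5 calls was lost when single arrays were left out, at an adjusted p of up to 0.105 for ADAM10, 0.101 for ADAM17, 0.145 for TIMP2, 0.131 for MMP16 and 0.0962 for ADAMTS6. Without 1 of wild type MUM2B replicate 2, MUM2B CANT1 replicate 3, or OCM1 CANT1 replicate 2 or 3, 6 genes passed, and without wild type OCM1 replicate 2 it was 5. With all 12 arrays no gene of the family passed (0.0471% of all genes did, 0.0393% higher and 0.00786% lower, and 632 had an unadjusted p under 0.05), and ADAMTS4 passed without the wild type OCM1 array of replicate 1, at 1.19 (adjusted p = 0.0211, against 0.338% of all genes).

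Among the 36 tested activators, inhibitors, substrates and partners, 12 rose and 2 fell in OCM1 CANT1 cells of replicates 2 and 3 (38.9%, where 23.6% of all genes passed). Shares of this list, chosen with earlier results of these data known, are no independent result in either line. A2M rose by 2.62 ± 0.13 (limma adjusted p = 4.07e-07), ITGB3 by 1.12 ± 0.20, the membrane-bound MMP inhibitor RECK by 0.97 ± 0.10, TSPAN5 by 0.85 ± 0.095, HBEGF by 0.79 ± 0.12 and the fibronectin gene FN1 by 0.75 ± 0.18. NOTCH1, a substrate of ADAM10, fell by 0.71 ± 0.14 and ADAMTSL1, a relative of the ADAMTS family without a protease domain, by 0.36 ± 0.11. In MUM2B CANT1 cells 15 rose and 1 fell (44.4%, where 24.8% of all genes passed). PLAT rose by 2.09 ± 0.23 (adjusted p = 0.000298), ITGB3 by 1.35 ± 0.20, FN1 by 1.22 ± 0.18, SERPINE2 by 0.93 ± 0.089, VCAN by 0.85 ± 0.12 and RHBDF1, a carrier of ADAM17, by 0.80 ± 0.11, and the convertase gene PCSK7 fell by 0.46 ± 0.099. None of the 36 passed in OCM1 or in MUM2B with all 12 arrays. Without the wild type OCM1 array of replicate 1, 1 of them passed in OCM1 (where 1.19% of all genes passed) and none in MUM2B.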

How the data were processed

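The deposited log2 values, 1 per probe set and array, were made by the authors from 12 arrays. The submitters' processing notes name MAS5, and the normalization and the base of the logarithm are not given in the sources used here, so base 2 was read from the range of the values. Values were turned back into signals, arrays were brought to a common trimmed mean of 500 (2% trimmed), and log2(signal + 32) went into two-sided tests in limma (lmFit and eBayes, version 3.58.1, R 4.3.3), with Benjamini-Hochberg adjustment over all genes tested. Scale factors were 1.167 to 1.232 for replicate 1 and 1.628 to 1.789 for replicates 2 and 3. Tested genes had a signal of at least 100 on 3 of 12 arrays, or on 2 of 8. The number of arrays limits the precision. The steps were tested on simulated data, where changes of 1 on the log2 scale in OCM1 CANT1 cells were found for 92.4% of genes on replicates 2 and 3 (12382 genes) and 63.8% on 12 arrays (12727 genes). False calls made up 3.86% and 6.99% of the calls. The simulated arrays had independent normal noise, no shift between the labelled sets and no array that stood apart, so these rates need not hold for the real arrays.

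Genes were named from the platform annotation, updated by gene identifier. The members and lists were chosen with earlier results of these data known. Named genes were a list of well-known members, members that passed a test (up to 8 in each direction), the 10 members with the highest mean level, and up to 6 pathway genes in each direction. Other normalizations, filters, probe sets and models, and leaving out each array, were tried as alternatives. A split of the ADAM genes by zinc-binding motif was not used here.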

Additional observations from a re-analysis of the deposited data

Results flagged for a closer look

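On replicates 2 and 3 the CANT1 effect differed between OCM1 and MUM2B, in limma's test of the difference itself, for 10 of the 34 tested genes, where 22.2% of all genes passed. The difference, OCM1 minus MUM2B, was −3.45 for MMP8, −1.39 for MMP2, −1.29 for ADAM8 and −1.27 for MMP14. It was −0.61 for ADAM10, −0.54 for TIMP2 and −0.46 for ADAM17. It was 1.12 for ADAMTS4, 0.81 for ADAMTS6 and 0.46 for MMP16. For MMP14 the effects passed with opposite signs in the lines. On replicate 1, with 1 array a group and no test, the difference had the opposite sign for 8 of the 10 genes (80%, against 67.3% of all genes called). It was 3.72 for MMP8, 2.77 for TIMP2, 1.83 for MMP14, 1.41 for ADAM10, 0.95 for ADAM8, 0.43 for ADAM17, 0.21 for MMP2 and −0.83 for ADAMTS6. ADAMTS4 at 2.17 and MMP16 at 1.2 kept their sign. The wild type OCM1 array that stood apart enters all of these values, and its part was not tested.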

How the results depend on the processing

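Of 162 counts of called genes under the alternatives, 136 stayed within 1.5 times the reported count and 26 did not, and no named gene that passed was reversed. With all 12 arrays, the 1 gene called between OCM1 CANT1 and wild type cells, ADAMTS4, became 0 under quantile normalization, 0 with the deposited log2 values, 0 with no set term and 0 with the replicate block, and the cause was not tested. Leaving out 1 array at a time gave, with 12 arrays, 6 to 16 genes between the wild type lines, 13 to 18 between the CANT1 lines, 0 to 1 for CANT1 in OCM1, 0 in every case for CANT1 in MUM2B and 0 to 1 for the difference of the effects. On replicates 2 and 3 it gave 18 to 23 between the lines, 6 to 10 in OCM1, 5 to 10 in MUM2B and 5 to 8 for the difference. A lone array left in a group was taken to vary like the other groups. Replicate numbers were not taken to pair the samples, since not every correlation of deviations between same-numbered arrays was over 0.1. In MUM2B they were 0.248, 0.472 and 0.035 for numbers 1 to 3, and in OCM1 0.172, 0.143 and 0.139. These deviations are from group means that include replicate 1, so they also carry the shift between the labelled sets. The difference of replicates 2 and 3 correlated between CANT1 and wild type cells at 0.20 in MUM2B and −0.13 in OCM1. With the replicate block the counts on replicates 2 and 3 were 21 between the lines, 10 in OCM1, 10 in MUM2B and 11 for the difference. With the OCM1 numbers crossed, chosen after seeing the data, they were 10 in OCM1 and 11 for the difference. Genes that missed the filter on a signal of 100 were not tested, and their differences are limited by background. The filter counted arrays of any group, so a tested gene could be below 100 in both groups compared. ADAMTS13 and ADAMTS17 were so in MUM2B on replicates 2 and 3.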
